A study of Mus musculus with 6 samples.

Results

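A total of 41 genes of the interferon response and of antigen presentation by MHC class I was followed in mouse liver. The genes were chosen by symbol: each of the 41 symbols matched a single Ensembl identifier of the deposited table, which has 54600 rows. Of the 41, 40 reached 1 TPM (a relative transcript level that is corrected for transcript length) in at least 3 libraries and were tested together with all 11440 genes that did, and Oas2 did not. RNA came from livers of mice kept on a high-fat diet for 16 weeks, with 3 libraries labelled wild type (WT) and 3 labelled hepatocyte-specific knockout of HIF-2α (KO), the oxygen-regulated transcription factor subunit encoded by Epas1. Both groups had the diet, so the comparison addresses the genotype label on that diet, and no library from another diet was analysed here. The labels give no strain, sex, age or Cre driver, and the other cells of the liver are expected to keep the gene in a hepatocyte-specific deletion.

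Interferons are cytokines released when cells sense viral or other misplaced nucleic acid. Type I interferon acts through JAK kinases on a complex that includes STAT2 and IRF9 and binds the interferon-stimulated response element (ISRE), whereas interferon-γ acts mainly through the GAS element. The induced genes block viral replication, attack the vacuoles of intracellular microbes and load peptides onto MHC class I molecules for display to cytotoxic T cells. Hepatocytes display low but inducible class I, and the liver also holds macrophages and endothelial cells that answer to interferon.

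The promoters of 6 of these genes are shown, and all but that of H2-K1 hold the core letters of the ISRE, an element by which the set is known. Each runs 5′ to 3′ on the strand of its gene, from 250 bases before to 50 bases after a RefSeq start site (build GRCm38.p6). Capitals mark the ISRE core (GAAA, any 2 bases, GAAA, on either strand), the GAS letters TTCNNNGAA and, as the only capitals of H2-K1, an NF-κB motif.
Isg15 (chr4:156200769-156201068, minus strand): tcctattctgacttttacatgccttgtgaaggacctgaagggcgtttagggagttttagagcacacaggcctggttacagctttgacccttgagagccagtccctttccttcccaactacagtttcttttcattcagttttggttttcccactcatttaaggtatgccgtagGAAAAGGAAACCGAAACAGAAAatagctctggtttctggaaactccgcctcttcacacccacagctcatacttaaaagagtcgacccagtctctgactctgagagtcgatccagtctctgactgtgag
Irgm2 (chr11:58214727-58215026, plus strand): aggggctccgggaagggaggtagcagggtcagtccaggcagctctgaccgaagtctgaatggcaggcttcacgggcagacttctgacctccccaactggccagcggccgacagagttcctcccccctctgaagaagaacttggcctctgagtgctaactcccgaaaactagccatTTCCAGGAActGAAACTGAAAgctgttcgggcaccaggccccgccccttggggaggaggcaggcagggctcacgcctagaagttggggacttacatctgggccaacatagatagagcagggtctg
Bst2 (chr8:71537423-71537722, minus strand): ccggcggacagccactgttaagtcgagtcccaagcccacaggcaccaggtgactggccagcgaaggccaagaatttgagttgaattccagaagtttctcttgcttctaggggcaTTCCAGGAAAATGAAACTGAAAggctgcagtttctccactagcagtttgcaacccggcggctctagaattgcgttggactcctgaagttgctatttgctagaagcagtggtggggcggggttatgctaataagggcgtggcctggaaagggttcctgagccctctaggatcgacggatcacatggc
B2m (chr2:122147437-122147736, plus strand): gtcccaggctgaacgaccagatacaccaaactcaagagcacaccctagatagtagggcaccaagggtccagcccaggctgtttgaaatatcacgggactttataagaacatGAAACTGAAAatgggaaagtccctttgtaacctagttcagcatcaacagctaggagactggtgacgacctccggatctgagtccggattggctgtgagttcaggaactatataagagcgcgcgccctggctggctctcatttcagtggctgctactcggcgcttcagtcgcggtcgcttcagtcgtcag
Trim12a (chr7:104315446-104315745, minus strand): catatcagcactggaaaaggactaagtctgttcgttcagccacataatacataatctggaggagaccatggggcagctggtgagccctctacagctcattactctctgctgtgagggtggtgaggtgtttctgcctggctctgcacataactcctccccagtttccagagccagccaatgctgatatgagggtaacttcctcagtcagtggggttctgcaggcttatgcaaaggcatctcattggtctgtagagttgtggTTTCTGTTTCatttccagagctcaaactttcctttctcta
H2-K1 (chr17:34000298-34000597, minus strand): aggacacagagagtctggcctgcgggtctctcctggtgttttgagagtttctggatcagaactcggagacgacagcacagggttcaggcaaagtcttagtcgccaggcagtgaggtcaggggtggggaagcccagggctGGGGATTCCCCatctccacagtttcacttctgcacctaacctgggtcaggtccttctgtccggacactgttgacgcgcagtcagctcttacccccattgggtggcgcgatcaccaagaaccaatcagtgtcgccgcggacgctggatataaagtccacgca

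A window was given for 34 of the 41 members, 40 windows in all, and Nlrc5, Iigp1, Usp18, Ifi27, Oas2, Parp14 and Rtp4 had none. The ISRE core was in 19 of the 40 windows (47.5%), from 18 members, against 3.44% of all 32851 promoter windows of the same length. The GAS letters, which are their own reverse complement, were in 10 member windows (25%) against 8.3% of all. Both were present in Oas1a, Igtp, Gbp7, Tgtp1, Irgm2 and Bst2. Isg15 carried 3 ISRE cores that overlap each other between positions -78 and -57 from the start. In Irgm2 the GAS letters (-75 to -67) stood just before the ISRE core (-64 to -55), and in Bst2 the GAS letters (-136 to -128) overlapped the first of 2 ISRE cores. Trim12a had its ISRE core at +11 to +20, after the start. The NF-κB motif, searched as those letters on both strands, was found in 10 of all windows (0.0304%), and these included H2-K1 (both of its overlapping windows) and H2-D1. The members were chosen as interferon genes, so these shares describe the set, and a match of letters is not a measured binding site. Elements that depart from the letters searched would be missed, so a window without a match may still hold one.

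The libraries were alike as liver: hepatocyte markers were abundant (Alb had a mean of 36220 TPM), and between 11013 and 11708 genes reached 1 TPM. TPM hold no read totals, so sequencing depth could not be read from them. The targeted gene, Epas1, was at 23.8, 26.0 and 21.0 TPM in WT-labelled libraries and at 26.6, 35.1 and 29.4 TPM in KO-labelled libraries. It was thus higher, not lower, under the KO label (limma unadjusted p = 0.050). That p was 0.0945 with libraries scaled by median ratios and 0.0171 with the library number as a block. Whole-gene TPM could not check the labels, and every direction below is between the libraries labelled KO and the libraries labelled WT. WT library 3 was the lowest of the 6 in 41.6% of all tested genes. The median log2(TPM + 1) difference of all genes, KO minus WT, was +0.09, which scaling the libraries by median ratios brought to +0.0014. The labels do not say whether libraries came from separate animals, so p-values reflect only the scatter among these 6 libraries, which may be technical.

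Members differed widely in level, and the class I genes stood at the top. Averaged over the 6 libraries, 6 members were at 100 TPM or more, 15 between 10 and 100, 19 between 1 and 10, and Oas2 was at 0.568 TPM. B2m, encoding the light chain shared by all class I molecules (chromosome 2, 122147686 to 122153083 in GENCODE M21), was at 2662, 2502 and 2112 TPM in WT-labelled libraries and 2838, 2387 and 2209 TPM in KO-labelled libraries. The heavy chain gene H2-K1 (chromosome 17, 33996017 to 34000347) was at 1311, 1536 and 1004 TPM and at 1504, 1538 and 1106 TPM. H2-D1, a second classical heavy chain gene, was at 319.6, 318.3 and 219.7 TPM and at 348.3, 319.2 and 282.7 TPM. In all 3 genes the ranges of the groups overlapped and library 3 was the lowest of each group.

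Below them came 3 interferon-induced genes at over 100 TPM. Iigp1, encoding the GTPase Irga6 that acts on parasite vacuoles, was at 177.5, 125.9 and 146.7 TPM (WT) and 163.4, 150.4 and 220.1 TPM (KO). Bst2, encoding tetherin, which holds budding virions on the cell surface, was at 131.4, 128.6 and 125.6 TPM and at 151.9, 113.8 and 140.2 TPM. Ifi27, an interferon-induced membrane protein gene, was at 138.1, 72.4 and 98.2 TPM and at 105.8, 72.8 and 128.1 TPM. The groups overlapped in each, and library 2 was the lowest of both groups for Iigp1 and Ifi27. Among neighbours in this order, the ranges of H2-D1 and Iigp1 met at their ends and those of Iigp1 and Bst2, and of Bst2 and Ifi27, overlapped over the 6 libraries, whereas those of B2m and H2-K1, and of H2-K1 and H2-D1, did not.

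**Figure D1:**
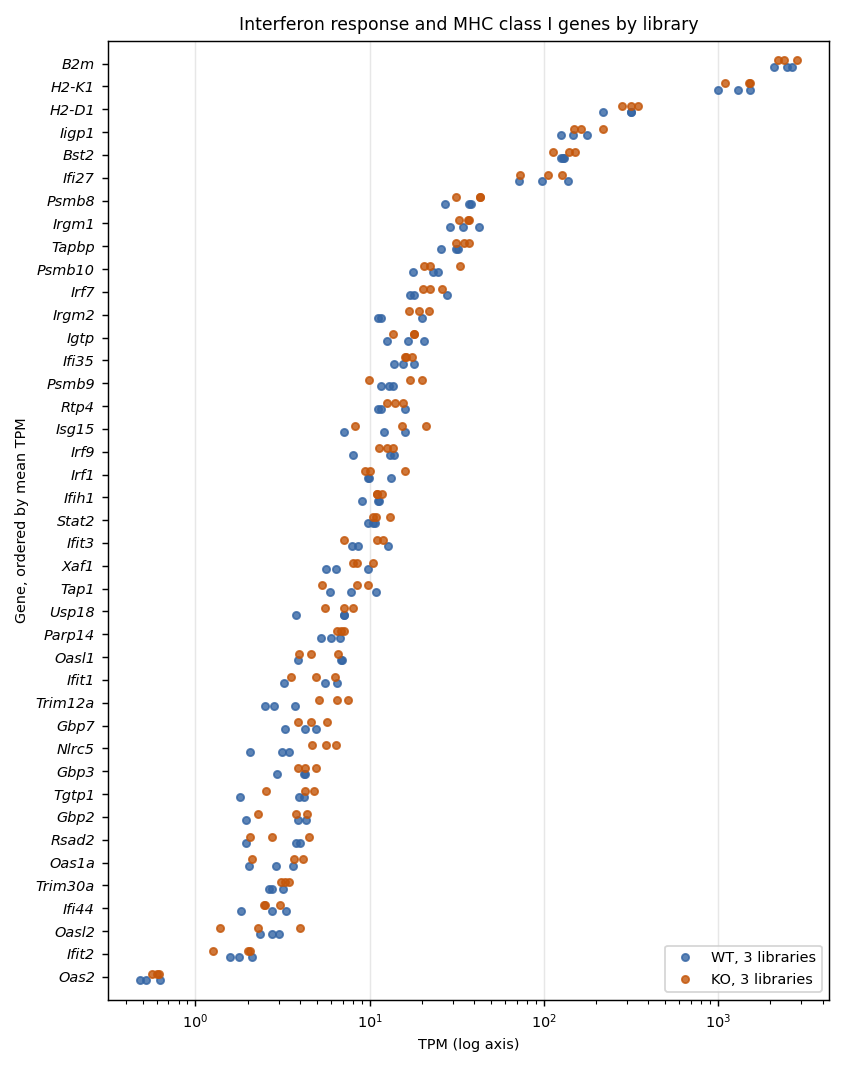
TPM of all 41 genes in each of 6 libraries, on a log axis, ordered by mean; each point is a library, blue for WT and orange for KO (3 each). B2m, H2-K1 and H2-D1 lie highest and Oas2 lowest, and the colours separate only for Nlrc5 and Trim12a.

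No member passed the threshold between the groups (limma, Benjamini-Hochberg adjusted p below 0.05 over all tested genes). The smallest adjusted p of a member was 0.993, and among all tested genes a single one passed (0.00874%), the pseudogene Gm13597. Before adjustment, 2 of the 40 tested members had a limma p below 0.05 and were higher in the libraries labelled KO, Trim12a and Nlrc5, while none was lower. That is 5% of the members, where 2.76% of all tested genes were higher and 0.385% lower by the same rule. These were also the members whose groups did not overlap: 2 of 40 lay wholly above, against 8.23% of all tested genes, and none wholly below, against 0.857%. The other 38 overlapped. The median difference of the members was +0.13 on the log2(TPM + 1) scale, beside +0.09 for all tested genes, and 34 of 40 were above 0, beside 74.5% of all. With median-ratio scaling the members' median was +0.03 and 23 of 40 (57.5%) were above 0, beside 50.4% of all genes, and 3 lay wholly above (those 2 and Tapbp), against 3.55% of all genes. In 11 members (27.5%) the KO library was the higher of all 3 same-numbered pairs, beside 26.9% of all genes, and in none the lower of all 3, beside 4.29%. For 37 of the 40 the limma 95% interval of the difference lay between -1 and +1, that is, within a 2-fold change on this scale, and the exceptions were Trim12a, Nlrc5 and Isg15.

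**Figure D2:**
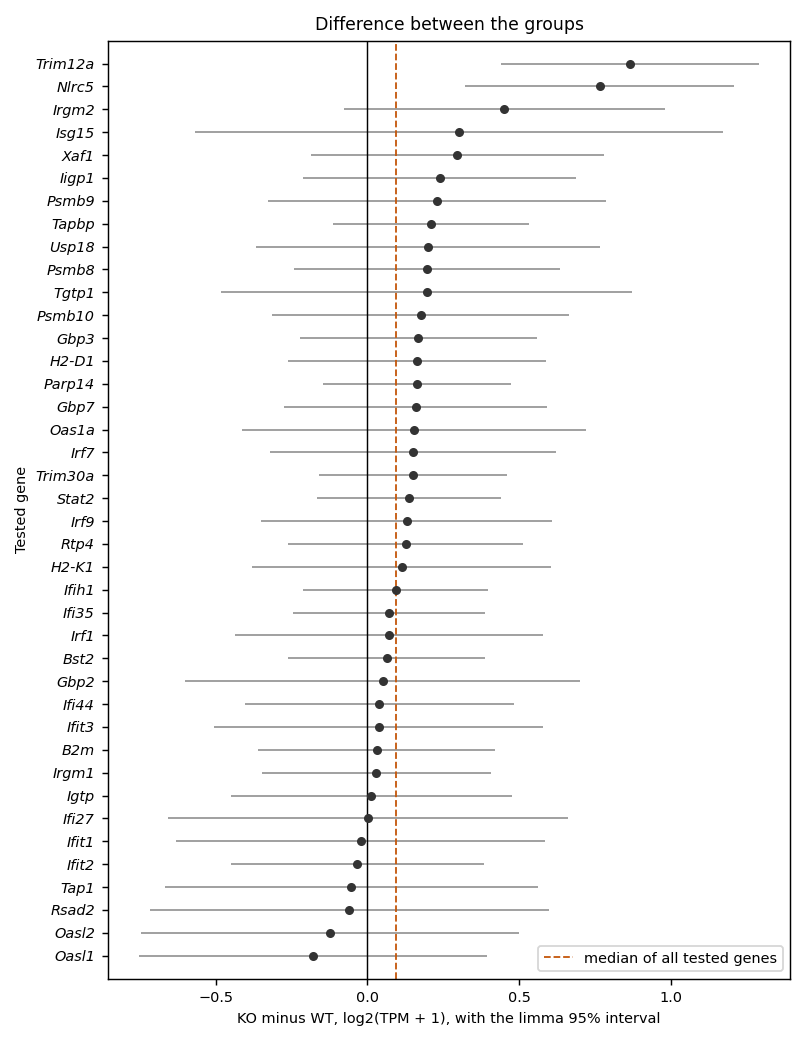
Difference between the groups (KO minus WT, log2(TPM + 1)) for the 40 tested genes, with limma 95% intervals; the dashed line is the median of all tested genes, +0.09. The intervals of Trim12a and Nlrc5 lie above 0, and those of the other 38 include 0.

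Mean TPM of Nlrc5 and Trim12a was about 2-fold higher in the KO-labelled libraries. Nlrc5 encodes the class I transactivator, a nuclear protein that switches on MHC class I genes (chromosome 8, 94434356 to 94527272). It was at 3.13, 2.05 and 3.46 TPM in WT-labelled libraries and at 6.40, 5.59 and 4.66 TPM in KO-labelled libraries, so the lowest KO library stood above the highest WT library. Group means came to 2.88 ± 0.739 and 5.55 ± 0.871 TPM (SD, n = 3 each). On the log2(TPM + 1) scale the difference was +0.77, with a standard error of 0.19 (limma unadjusted p = 0.00438, adjusted p = 0.993). Trim12a belongs to a mouse cluster of genes related to the retroviral restriction factor TRIM5 (chromosome 7, 104299894 to 104315466). It was at 3.76, 2.83 and 2.52 TPM and at 6.51, 7.49 and 5.09 TPM, again with no overlap. Group means came to 3.04 ± 0.643 and 6.37 ± 1.21 TPM, a difference of +0.87 with a standard error of 0.18 (limma unadjusted p = 0.00178, adjusted p = 0.993). Leaving out any 1 library kept the unadjusted limma p of both below 0.05. Both are low genes, and of the transcript of Trim12a 13.5% of 75-base windows also occur in other genes, mostly Trim5. Its neighbour Trim12c was at 4.79, 3.40 and 4.73 TPM and at 5.16, 4.93 and 5.66 TPM.

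Members among the genes that NLRC5 is known to act on, namely H2-K1, H2-D1, B2m, Tap1 and Psmb9, overlapped between the groups. Tap1, a subunit of the peptide transporter, was at 10.9, 7.80 and 5.90 TPM in WT-labelled libraries and 9.80, 8.47 and 5.34 TPM in KO-labelled libraries. Psmb9, an inducible proteasome subunit, was at 13.6, 11.7 and 12.9 TPM and at 19.99, 17.1 and 9.98 TPM. The limma differences of B2m, H2-K1, H2-D1, Tap1 and Psmb9 were +0.03, +0.11, +0.16, -0.05 and +0.23, each with an interval that includes 0. An interval such as that of Tap1, from -0.67 to +0.56, is wide enough to hold changes of moderate size in either direction.

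**Figure D3:**
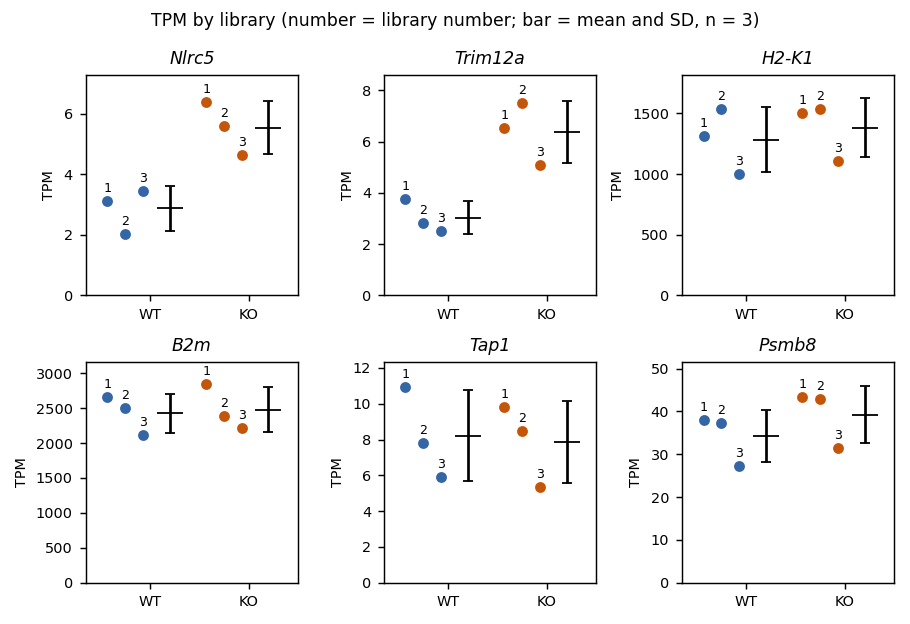
TPM of Nlrc5, Trim12a, H2-K1, B2m, Tap1 and Psmb8 by group, each axis starting at 0; points are libraries with their number, bars the mean and SD (n = 3 each). The groups stand apart for Nlrc5 and Trim12a and overlap for the other 4, where library 3 is the lowest of each group.

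The remaining genes of antigen processing had small differences with overlapping groups. Psmb8, which replaces a constitutive catalytic subunit in the immunoproteasome, was at 38.1, 37.3 and 27.2 TPM (WT) and 43.3, 43.0 and 31.5 TPM (KO). Tapbp, encoding tapasin, which holds class I molecules at the peptide transporter, was at 32.4, 31.3 and 25.6 TPM and at 34.7, 37.3 and 31.5 TPM. Both were higher in the KO library of all 3 same-numbered pairs, beside 26.9% of all tested genes. Their limma unadjusted p was 0.327 and 0.169 in the main fit. With the library number as a block it was 0.0518 and 0.05895 (limma adjusted p = 0.724 each). Psmb10, the remaining inducible catalytic subunit, had means of 21.9 ± 3.63 and 25.2 ± 6.77 TPM (SD, n = 3 each). Psmb9 and Tap1 overlap on opposite strands over 212 exonic bases, and Tapbp and Psmb8 share 904 and 498 exonic bases with antisense genes, so without a stated strand setting those reads cannot be told apart.

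Set against their constitutive counterparts in the same library, the inducible proteasome subunits were the minor form. The ratio of Psmb8 to Psmb5 in TPM was 0.372, 0.402 and 0.316 in WT-labelled libraries and 0.400, 0.472 and 0.342 in KO-labelled libraries. That of Psmb9 to Psmb6 was 0.0890, 0.0803 and 0.102 and then 0.129, 0.121 and 0.0625, and that of Psmb10 to Psmb7 was 0.169, 0.215 and 0.162 and then 0.149, 0.276 and 0.182. All 3 ratios overlapped between the groups. Of 6 ratios compared, which also included B2m to H2-K1, H2-K1 to H2-D1 and Tap1 to Tapbp, the smallest exact two-sided permutation p was 0.4 (adjusted 0.8), where 3 libraries against 3 cannot go below 0.1. Psmb8 to Psmb5 was higher, and B2m to H2-K1 and Tap1 to Tapbp were lower, in the KO library of all 3 same-numbered pairs, and an exact paired permutation gave p = 0.25 for each, the smallest that 3 pairs allow. The means of B2m to H2-K1 were 1.92 ± 0.256 and 1.81 ± 0.232, those of H2-K1 to H2-D1 4.50 ± 0.368 and 4.35 ± 0.454, and those of Tap1 to Tapbp 0.272 ± 0.0570 and 0.226 ± 0.0567 (SD, n = 3 each).

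**Figure D4:**
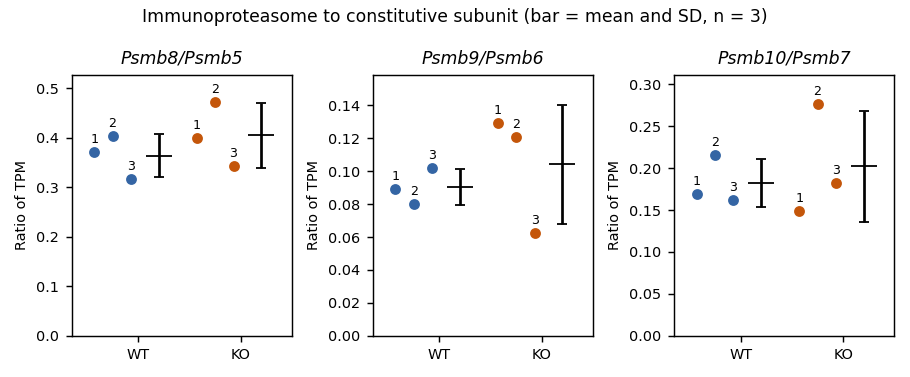
Ratio of the TPM of each inducible proteasome subunit to that of its constitutive counterpart in the same library, with axes from 0; points are libraries with their number, bars the mean and SD (n = 3 each). All ratios are below 0.5 and the groups overlap.

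The 8 interferon-induced GTPases all had differences above 0, from +0.01 (Igtp) to +0.45 (Irgm2), beside 74.5% of all tested genes above 0. None of the 8 had a limma unadjusted p below 0.05. These proteins attack or protect the membranes around intracellular pathogens, the immunity-related GTPases (Iigp1, Igtp, Irgm1, Irgm2, Tgtp1) and the guanylate-binding proteins (Gbp2, Gbp3, Gbp7). Irgm2, a regulator of the other immunity-related GTPases, was at 19.9, 11.7 and 11.2 TPM in WT-labelled libraries and 16.8, 19.2 and 22.1 TPM in KO-labelled libraries. Irgm1, a regulator linked to autophagy, was at 42.3, 28.8 and 34.4 TPM and at 36.8, 32.4 and 37.5 TPM. The groups overlapped for both genes, with limma unadjusted p of 0.084 and 0.861. Tgtp1, an effector of the same family, was at 4.20, 3.92 and 1.80 TPM and at 4.78, 4.27 and 2.54 TPM, lowest in library 3 of both groups. Of its transcript windows 87.7% also occur in other genes, mainly its near-copy Tgtp2, so the split between them is uncertain, and Igtp and Irgm2 share 162 exonic bases. Gbp2, Gbp3 and Gbp7 had means of 3.37, 3.80 and 4.14 TPM (WT) and 3.48, 4.36 and 4.74 TPM (KO). With median-ratio scaling 5 of the 8 GTPases were above 0, beside 50.4% of all genes.

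Among the transcription factors, only Nlrc5 had separated groups. Stat2, the subunit that carries the activation domain of the type I complex, was at 10.7, 9.77 and 10.4 TPM in WT-labelled libraries and 10.9, 13.1 and 10.5 TPM in KO-labelled libraries (limma unadjusted p = 0.325). Irf9, its DNA-binding partner, had means of 11.6 ± 3.16 and 12.5 ± 1.14 TPM, Irf7, the amplifier of type I interferon production, 20.9 ± 5.90 and 22.9 ± 2.91, and Irf1, a factor induced by interferon-γ, 11 ± 1.93 and 11.8 ± 3.60 (SD, n = 3 each).

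Sensors and direct antiviral effectors were mostly low, and their differences were of both signs. Of 13, 12 were tested and 7 were above 0, or 4 with median-ratio scaling. Of all tested genes 74.5% were above 0, or 50.4% with that scaling. Ifih1, the RNA sensor MDA5, had means of 10.5 ± 1.28 and 11.2 ± 0.439 TPM (SD, n = 3 each). Oasl2, of the oligoadenylate synthetase family that primes RNA decay, was at 3.03, 2.34 and 2.76 TPM (WT) and 3.99, 2.30 and 1.38 TPM (KO), with libraries labelled KO at both ends of its range. Its relative Oasl1 had the lowest difference of the set, -0.18 with a standard error of 0.25, from means of 5.90 ± 1.75 and 5.04 ± 1.37 TPM, and Oas1a had means of 2.85 and 3.32 TPM. Ifit1, Ifit2 and Ifit3, which bind foreign RNA, had means of 5.10, 1.82 and 9.75 TPM (WT) and 4.95, 1.78 and 10.04 TPM (KO). Rsad2, encoding viperin, had means of 3.25 ± 1.122 and 3.09 ± 1.24 TPM, and Rtp4, an interferon-induced regulator of antiviral responses, 12.9 ± 2.67 and 14.1 ± 1.47. Trim30a, a neighbour of Trim12a, was at 3.18, 2.64 and 2.74 TPM and at 3.12, 3.26 and 3.43 TPM (limma unadjusted p = 0.290). The transcripts of Oas1a and Ifit3 share 47.6% and 41.1% of their windows with Oas1g and Ifit3b.

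The genes of protein ISGylation and the other induced genes also overlapped between groups. Isg15, a ubiquitin-like protein attached to other proteins, had the widest range of any tested member on the log2(TPM + 1) scale, 1.46, at 16.0, 7.10 and 12.1 TPM in WT-labelled libraries and 21.2, 8.29 and 15.4 TPM in KO-labelled libraries. Library 2 was the lowest and library 1 the highest of each group, and the KO library was the higher of every same-numbered pair. Its difference was +0.30 with a standard error of 0.37 (limma unadjusted p = 0.443), and it was +0.01 without WT library 2, +0.02 without KO library 1 and +0.65 without KO library 2. Blocking on the replicate number gave a standard error of 0.10 and a limma unadjusted p of 0.0272, with an adjusted p of 0.724, and the unadjusted p was 0.101 under the block with median-ratio scaling. Under the block 3 of 40 members were thus higher at an unadjusted p below 0.05 (7.5%, beside 5.26% of all genes). None was lower, beside 0.918% of all, and 0 genes passed after adjustment under the block (0%). Usp18, the protease that removes ISG15 and dampens the receptor, was at 7.17, 3.76 and 7.14 TPM and at 7.10, 5.56 and 8.03 TPM. Xaf1, an interferon-induced gene that promotes cell death, was at 9.84, 6.41 and 5.65 TPM and at 10.4, 8.07 and 8.53 TPM (limma unadjusted p = 0.191). Parp14, an ADP-ribosyltransferase, was at 6.79, 5.27 and 5.97 TPM and at 6.47, 7.14 and 6.86 TPM. Ifi35 and Ifi44 had means of 15.8 and 2.63 TPM (WT) and 16.6 and 2.69 TPM (KO).

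The members varied more within groups than the average gene, and in a pattern that partly followed the library numbers. The median within-group SD of a tested member was 0.28 on the log2(TPM + 1) scale, beside 0.21 for all tested genes. The highest of the 6 libraries was one numbered 1 in 26 of 40 members (65%), beside 38.3% of all genes, and the lowest was never one numbered 1, beside 13.4% of all. It was one numbered 2 in 20 members, beside 24.7% of all genes, and one numbered 3 in the other 20, beside 62%. In 11 members (27.5%, beside 10.4% of all genes) library 2 was the lowest of both groups: Iigp1, Irgm1, Irf9, Ifih1, Ifit1, Oas1a, Rsad2, Isg15, Usp18, Ifi27 and Ifi44. In 14 (35%, beside 35.2% of all) library 3 was: Igtp, Tgtp1, Gbp2, Gbp3, Gbp7, Ifit2, Ifit3, Trim12a, Psmb8, Tap1, Tapbp, B2m, H2-K1 and H2-D1. Median-ratio scaling left 12 members lowest in number 2 (30%, beside 16.2%) and 12 lowest in number 3 (30%, beside 16.4%). All of the first 11 were among the former, and a library numbered 1 was then the highest in 20 members (50%, beside 27.2%).

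By role, the block of ISGylation and other induced genes was lowest in library 2 of both groups. Its mean deviations there were -0.41 (WT) and -0.13 (KO) from each gene's own mean on the log2 scale. The antigen presentation block was at +0.03 and +0.20 in library 2. In library 3 the presentation block was at -0.32 and -0.21 and the block of ISGylation and other induced genes at -0.06 and +0.19. All tested genes averaged -0.02 (WT) and +0.10 (KO) in library 2, and -0.16 and -0.03 in library 3. With median-ratio scaling the block of ISGylation and other induced genes was at -0.39 and -0.23 in library 2. The presentation block was then at -0.14 and -0.18 in library 3. When each library was centred on its own group, libraries of the same number had Pearson correlations over the tested members of 0.18, 0.71 and 0.46 for numbers 1, 2 and 3, and across all tested genes of 0.16, 0.41 and 0.38. Libraries of different numbers had correlations over the members from -0.55 to +0.24. The highest of these, WT 1 with KO 3, exceeded that of WT 1 with KO 1, so number 1 did not stand out. These are correlations across genes, which are not independent replicates. Within a group the centred values of each gene sum to 0, so same-number correlations above 0 force some of the others below 0. Of the 8 members with a promoter window among the 11 lowest in number 2, 6 held an ISRE core and 1 the GAS letters. Of the 14 lowest in number 3, 8 and 5 did. Of all 34 members with a window, 18 held an ISRE core and 10 the GAS letters. These groups were formed from the same values, and a link between motif and pattern was not tested.

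**Figure D5:**
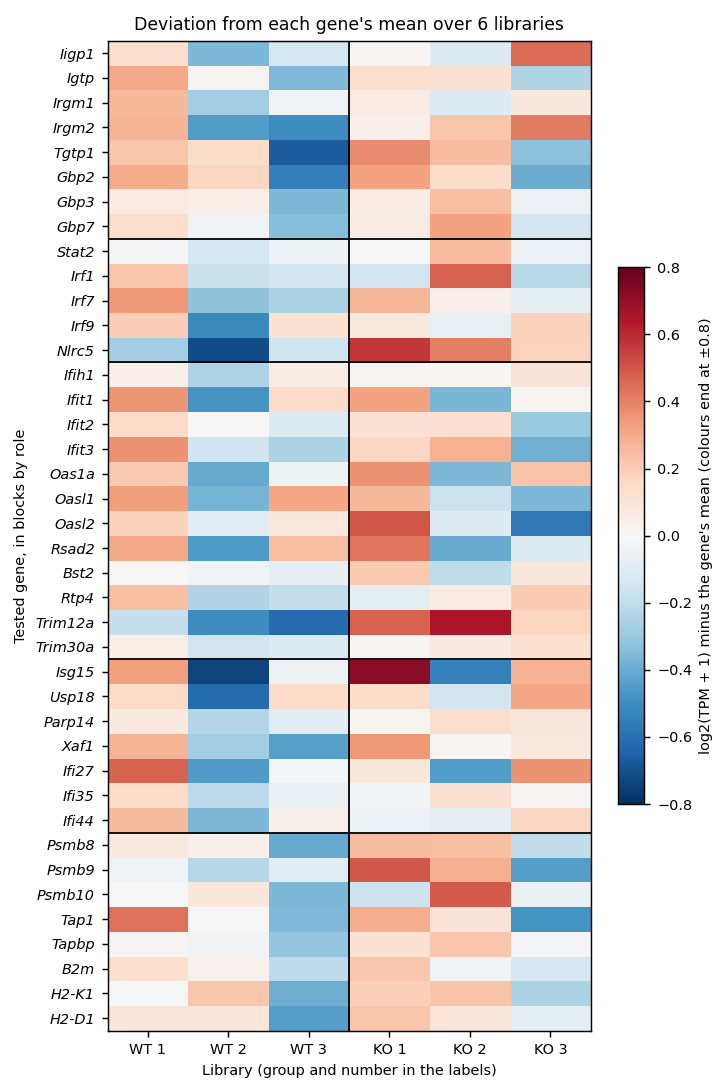
Deviation of log2(TPM + 1) from each gene's mean over the 6 libraries, for the 40 tested genes in blocks by role (GTPases, transcription factors, sensors and effectors, ISGylation and others, antigen presentation); red is above and blue below the mean. WT 2 and KO 2 are blue for Isg15, Ifi27 and Rsad2, and WT 3 and KO 3 for Tgtp1, Gbp2 and H2-K1, whereas only Nlrc5 and Trim12a are blue in all WT and red in all KO libraries.

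The interferons themselves were nearly undetected. Of 11 interferon genes, 10 were listed at 0 in every library, and Ifng was at 0.050 TPM in WT library 2 and listed at 0 in the other 5. Receptors and signalling genes were expressed: of 19, 17 were tested, all with a difference above 0 (16 with median-ratio scaling), and 1 had a limma unadjusted p below 0.05. Over all tested genes 74.5% were above 0 (50.4% with median-ratio scaling) and 2.76% were higher at that level. That gene, Socs3, an inhibitor of JAK signalling, was at 1.43, 1.59 and 0.645 TPM in WT-labelled libraries and 1.79, 2.12 and 3.12 TPM in KO-labelled libraries (limma unadjusted p = 0.0368, but 0.0545 with median-ratio scaling and 0.0673 under the replicate block). Of 14 tested nucleic acid sensing genes, Tlr3, the endosomal receptor for double-stranded RNA, was at 1.71, 1.86 and 1.32 TPM and at 2.37, 2.81 and 2.28 TPM (limma unadjusted p = 0.0309), and the other 13 did not reach this level. Both separated between the groups, as did Irf3, a factor that induces interferon genes, at 28.7, 29.5 and 23.7 TPM and at 29.8, 31.3 and 31.4 TPM. All KO libraries lay above all WT libraries in 2 of the 17 and 1 of the 14 genes, beside 8.23% of all tested genes.

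Of 52 other tested interferon-induced genes none had an unadjusted limma p below 0.05, 36 were above 0 and their median difference was +0.06. Over all tested genes 2.76% were higher and 0.385% lower at that level, 74.5% were above 0 and the median was +0.09. Under the replicate block 3 of the 52 were higher at that level, beside 5.26% of all tested genes. Their limma unadjusted p was 0.00224 for Lgals3bp, 0.00845 for Ly6e and 0.0443 for Gbp11. Gbp11, annotated as a polymorphic pseudogene, was at 0.86, 1.34 and 1.23 TPM (WT) and 1.90, 1.63 and 7.41 TPM (KO). It was thus low in all but KO library 3 (limma unadjusted p = 0.0666 in the main fit). Of the 52, 2 lay wholly above, beside 8.23% of all tested genes. Of 22 other tested class I presentation genes, 1 was higher and 1 lower at a limma unadjusted p below 0.05 in the main fit. Of all tested genes 2.76% and 0.385% were. H2-T24, a nonclassical heavy chain gene, was at 1.87, 2.09 and 2.02 TPM and at 2.82, 2.65 and 2.89 TPM (limma unadjusted p = 0.0344, but 0.0825 with median-ratio scaling and 0.0527 under the block). Rfxap, a subunit of the RFX complex with which NLRC5 and the class II transactivator work, was at 8.17, 8.32 and 9.68 TPM and at 6.52, 6.12 and 7.32 TPM (limma unadjusted p = 0.0320), the opposite direction to Nlrc5. Under the block the chaperones of class I assembly Calr and Pdia3 were higher at that level too, with a limma unadjusted p of 0.0316 and 0.0231. In all, 2 of the 22 were higher and 1 lower under the block, beside 5.26% and 0.918% of all tested genes. H2-T23, a nonclassical heavy chain gene, also lay wholly above, at 152, 165 and 136.6 TPM and at 166.4, 180.8 and 173.4 TPM (limma unadjusted p = 0.144). Thus 2 of the 22 lay wholly above and 1 wholly below, beside 8.23% and 0.857% of all tested genes. Socs3, Tlr3, H2-T24 and Rfxap did not pass after adjustment (limma adjusted p = 0.993 each), nor did the genes named for the block (0.724 each). The nonclassical H2-Q10, known as a liver-expressed secreted class I gene of mice, had means of 1403 ± 160 and 1404 ± 298 TPM (SD, n = 3 each), a level near that of H2-K1.

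Markers of cells that could carry interferon genes were read beside these values. The 14 T and NK cell markers summed to between 4.75 and 7.16 TPM in WT-labelled libraries and between 3.92 and 6.18 TPM in KO-labelled libraries. The 8 dendritic cell markers summed to between 2.89 and 5.01 and between 2.93 and 3.85 TPM, and in both lists the sum was highest in library 2 of its group. Only 1 of the 14 and 1 of the 8 reached 1 TPM in at least 3 libraries, so these sums rest on low values. The 15 Kupffer cell and macrophage markers summed to 466, 423.1 and 325.7 TPM (WT) and 444.2, 443.4 and 426.4 TPM (KO), lowest in WT library 3. Of the 13 tested, 12 were above 0, beside 74.5% of all tested genes, and none had an unadjusted limma p below 0.05. The 11 endothelial markers summed to 161.2, 169.3 and 152.9 TPM and 166.5, 191.5 and 157.3 TPM. The 8 B and plasma cell markers ran from 78.3 to 104.1 and from 95.6 to 214.2 TPM, the 7 neutrophil markers from 2.25 to 10.8 and from 6.14 to 7.03 TPM, the 9 stellate cell markers from 186.3 to 223.9 and from 216.7 to 268.5 TPM, and the 6 cholangiocyte markers from 25.3 to 35.7 and from 35.5 to 56.6 TPM. Only 3 of the B and plasma cell markers and 2 of the neutrophil markers were tested. Of the tested markers, 1 of 10 endothelial, 1 of 8 stellate cell and 1 of 2 cholangiocyte markers was higher at a limma unadjusted p below 0.05. Of all tested genes 2.76% were. The markers were Lyve1, Col3a1 and Spp1, with limma unadjusted p of 0.0314, 0.0464 and 0.0347. Lyve1, Eng and Col3a1 lay wholly above in the KO-labelled libraries. That is 2 of the 10 endothelial and 1 of the 8 stellate cell markers, beside 8.23% of all tested genes. In each of these lists the sums of the groups overlapped, and their part in the values above was not tested. In whole liver, fewer cells of a type and less RNA per cell cannot be told apart.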

How the data were processed

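RNA was measured in 6 liver libraries (3 labelled WT, 3 labelled KO). The authors deposited one table of TPM. The build mm10 and the tools HISAT2, fastp, featureCounts, limma and DESeq2 are listed per the submitters' processing notes, without roles or versions. The counting mode and the number of reads are not given in the sources used here. No count model or counting interval was therefore used.

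Gene names and coordinates came from GENCODE M21 (the mm10 assembly), and 51492 of 54323 Ensembl identifiers matched. Promoters came from RefSeq (GRCm38.p6). The 11440 genes that reached 1 TPM in 3 or more libraries entered a limma fit (version 3.58.1, R 4.3.3, two-sided, variance trend). Its scale, log2(TPM + 1), understates changes of low genes, and p-values were adjusted by Benjamini-Hochberg over all of them. The step was run on simulated data with independent noise for each gene and library. These lacked the correlation by library number seen here, so that run does not show how the fit behaves under it. Ratios were compared by exact permutation. Values per library are given for the 10 members with the smallest p, the 8 with the highest mean and the 8 with the widest range, as well as Epas1 and listed pathway genes with an unadjusted p below 0.05. Trim12c, H2-Q10, H2-T23, Irf3, Tap1, Gm13597, the list genes named for the replicate block and the markers named singly fall outside that rule and were chosen after their values were seen, and a gene that the rule names is not reported here. Members and lists were chosen with earlier results of these data known. Windows of 75 bases of each member's longest coding transcript were matched to transcripts of other genes.

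Both groups carry the numbers 1 to 3 in the labels, which do not call them pairs. Deviations of same-numbered libraries were correlated at 0.16, 0.41 and 0.38 over all tested genes, each above 0.1. From these data, and not from the labels, the numbers were used as a pairing in alternatives only. The main fit and the main ratio comparison did not use them, and correlations across genes are no test of pairing. The replicate block was an alternative. The other alternatives concerned the pseudocount, the filter, the scaling, the variance model, library weights and left-out libraries.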

Additional observations from a re-analysis of the deposited data

How the results depend on the processing

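No member passed after adjustment under any of the 21 alternatives (limma, smallest adjusted p = 0.724, under the replicate block). Trim12a kept an unadjusted p below 0.05 and a positive difference under all 21, from +0.50 (pseudocount 5) to +1.05 (pseudocount 0.1), and Nlrc5 under the 20 in which it was tested, from +0.42 to +0.98. The filter of 5 TPM leaves Nlrc5 untested, so 1 member had an unadjusted p below 0.05 there, against 2 in the main analysis. Leaving out 1 library gave 2 to 4: Irgm2 and Xaf1 were added without WT replicate 1 and Psmb9 without KO replicate 3. The count over all genes rose there too. At that level 457 of 11247 tested genes were higher without WT replicate 1 and 373 of 11267 without KO replicate 3. In the main analysis 316 of 11440 were. The replicate block gave 3, adding Isg15 and changing no other member's side of that level, and with median-ratio scaling 2.

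The count of all genes called, 1, was 0 with a pseudocount of 5, no filter, the 5 TPM filter, quantile normalization, the replicate block with or without median-ratio scaling, or without both libraries of number 1, 2 or 3, and 0 to 2 without 1 library. In the main analysis 316 genes were higher and 44 lower at an unadjusted p below 0.05, and with median-ratio scaling 154 and 145. The members' median difference ran from +0.03 to +0.23. Of 21 members compared, 12 kept the sign of their difference under every alternative that tested them. Without 1 library each, the log2 difference of the ratio Psmb9 to Psmb6 ran from -0.050 to +0.47, Psmb10 to Psmb7 from -0.13 to +0.31, B2m to H2-K1 from -0.20 to +0.025 and H2-K1 to H2-D1 from -0.13 to +0.023, each changing sign, whereas Psmb8 to Psmb5 (+0.03 to +0.26) and Tap1 to Tapbp (-0.45 to -0.08) did not. The cause of these changes was not tested. Pairing the ratios, an alternative added after seeing the data, gave no exact p below 0.25. Each symbol had a single identifier, so summing identifiers was not run. Without depth, levels near 1 TPM have unknown counting error.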
